A study of Mus musculus with 16 samples.

Results

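The 8 genes described here encode the receptors of the colony-stimulating factors (CSFs), the related receptors Kit and Flt3, and the ligand Csf1. They were chosen by name, with earlier results of these data known, and they are 8 of the 55604 genes listed in each count table. RNA was sequenced from Tim-4+ and Tim-4- tumor-associated macrophages (TAMs) of the peritoneal cavity of C57BL/6 mice bearing ID8, a mouse ovarian cancer line that spreads in the peritoneum and causes ascites. The mice were females in the study's methods, both subsets came from tumor-bearing mice, and no tumor-free macrophages enter. The labels write Tim4+ or Tim4- under genotype, which here names the sorted subset and no mutation. Most tumor cells were taken out on a density gradient, Tim-4+ TAMs were then pulled out with an antibody to Tim-4 and magnetic beads, and Tim-4- TAMs were enriched from the remaining cells with beads against F4/80, so that only the second subset was selected for F4/80. There were 4 numbered pairs (793, 784, 783 and 779), each with 1 library per subset (n = 4), and each library was read in 2 lanes. Whether a pair came from 1 mouse or from pooled mice is not given in the sources used here.

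CSF1 (M-CSF) and IL-34 bind the receptor tyrosine kinase CSF1R, on which most tissue macrophages depend for survival and proliferation. GM-CSF, the product of Csf2, binds a receptor made of its own alpha chain, CSF2RA, and a beta chain, CSF2RB, that passes the signal to JAK2 and STAT5. G-CSF, the product of Csf3, binds CSF3R, best known in neutrophils, while KIT and FLT3 are the receptors of stem cell factor and FLT3 ligand and are known from mast cells, hematopoietic progenitors and dendritic cells.

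The counts on genes totaled 53527928 to 57768202 in the Tim-4+ libraries and 55618306 to 69594245 in the Tim-4- libraries. Levels are given as CPM, the counts of a gene scaled to the size of its library, with TMM factors, and 3 counts, taken as the floor, were worth 0.0382 to 0.0630 CPM on this scale by library. Timd4, which encodes Tim-4, stood at 524 to 1744 CPM in the Tim-4+ libraries and at 1.97 to 85.0 CPM in the Tim-4- libraries. The labelled cell type was borne out in both subsets by 9 macrophage markers, which together made up 50747 to 63654 CPM of the Tim-4+ libraries and 23452 to 38016 CPM of the Tim-4- libraries, led by the lysozyme gene Lyz2. Of these 9 markers, 7 were higher in Tim-4+ TAMs and 1, Mrc1, was lower.

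Between the subsets, 3 of the 8 genes were higher in Tim-4+ TAMs (Csf2rb, Csf2rb2 and Csf3r), 1 was lower (Kit), and 4 genes did not pass the test (Csf1, Csf1r, Csf2ra and Flt3). All 8 passed the filter on low counts. The test was edgeR's quasi-likelihood test, in which the pair was a block, and a call needed a Benjamini-Hochberg adjusted p under 0.05. It covered 16861 genes, among which 8.97% were called higher in Tim-4+ TAMs, 8.43% lower and 17.4% in either direction. The median log2 fold change, Tim-4+ over Tim-4-, was 0.49 over the 8 genes and -0.0012 over all genes tested. In bulk samples such as these, fewer cells of a type and less RNA per cell cannot be told apart. With counts scaled to library totals alone the median of all genes moved to -0.36 and that of the 8 genes to 0.13. The calls went from 1512 higher and 1421 lower to 789 higher and 4906 lower, while the same 3 genes remained higher and Kit remained lower. The calls depended on the pairing and on which pairs were fitted. Without the block 0 of the 8 genes were called by edgeR, with 2 higher and 1 lower at an unadjusted p under 0.05. Without pair 784 edgeR again called 0 of the 8, with 3 higher and 1 lower at an unadjusted p under 0.05, whereas DESeq2 on all 4 pairs with the block called 3 higher and 1 lower. The log2 fold changes of Csf2rb, Csf2rb2, Csf3r and Kit were 0.91, 0.70, 1.13 and -1.93 without the block and 1.001, 0.75, 1.15 and -1.70 without pair 784, and Csf2rb2 and Kit also lost their calls without pair 793 or pair 779.

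**Figure D1:**
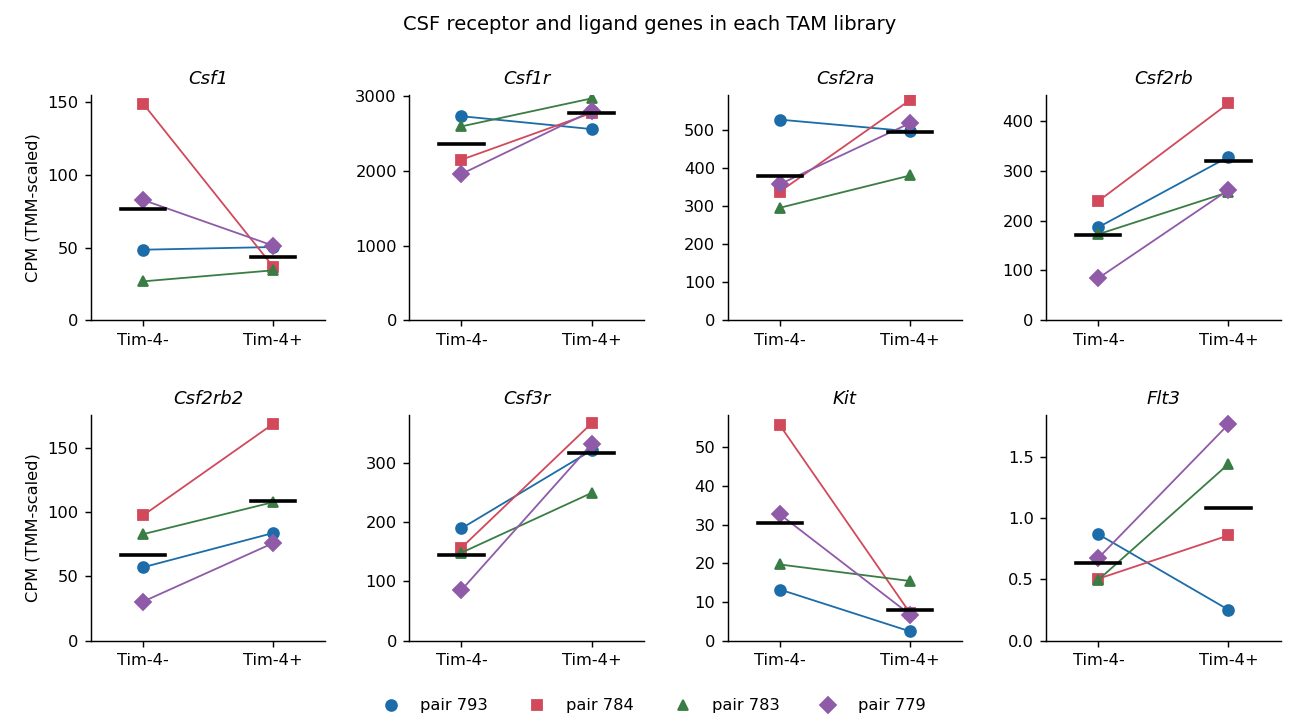
Each panel plots 1 gene, with its level in CPM (TMM-scaled, axis from 0) in the Tim-4- and the Tim-4+ library of each of 4 pairs, which a line joins. Black bars are the group means. Csf2rb and Csf3r lie higher in every Tim-4+ library than in any Tim-4- library, and Kit falls along all 4 lines, least steeply in pair 783.

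Levels of different genes were compared per kb of exon. In Tim-4+ TAMs the order was Csf1r with 481 ± 29.2 CPM per kb (SD, n = 4), Csf2ra with 172 ± 28.9, Csf3r with 87.7 ± 13.6, Csf2rb with 43.99 ± 11.4, Csf2rb2 with 23.0 ± 8.88, Csf1 with 8.18 ± 1.68, Kit with 0.889 ± 0.610 and Flt3 with 0.175 ± 0.108. Neighbors in this order did not overlap between libraries, except Csf2rb with Csf2rb2 and Kit with Flt3. In Tim-4- TAMs Csf1r (408 ± 63.2 CPM per kb), Csf2ra (132 ± 35.4), Kit (3.40 ± 2.10) and Flt3 (0.103 ± 0.0284) kept their places in the order, and each stood apart from the genes next to it. Between Csf2ra and Kit, the ranges of Csf3r (40.1 ± 12.04), Csf2rb (23.4 ± 8.81), Csf1 (14.5 ± 10.1) and Csf2rb2 (14.1 ± 6.24) each overlapped the next. Csf1r was higher, in CPM, than 99.79% of the genes tested in Tim-4+ TAMs and than 99.88% in Tim-4- TAMs.

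**Figure D2:**
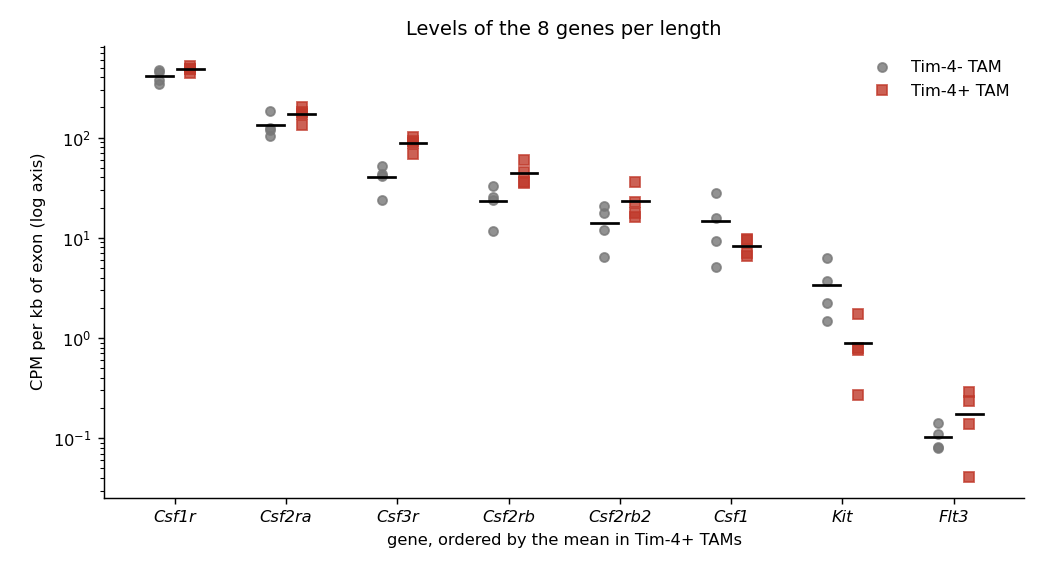
Levels of the 8 genes in CPM per kb of exon on a log axis, with 1 point per library (grey circles Tim-4- TAMs, red squares Tim-4+ TAMs) and the group mean as a bar. The genes run from Csf1r at 481 CPM per kb in Tim-4+ TAMs down to Flt3 at 0.175, and for Csf3r and Csf2rb the points of the groups do not overlap.

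The ligand gene Csf1 (chr3:107741048-107760469, minus strand, GRCm38) was measured at 50.4, 36.9, 34.3 and 51.3 CPM in the Tim-4+ libraries of pairs 793, 784, 783 and 779, and at 48.5, 149, 26.8 and 82.8 CPM in the Tim-4- libraries. The same order of pairs holds for the values that follow. The Tim-4+ libraries lay close together, the Tim-4- libraries spread over a wider range that contained them, and the direction went either way, with 2 of 4 pairs higher in Tim-4+ TAMs. The fitted change was -0.56 on the log2 scale, with an SE of 0.38 (n = 4 pairs) and an adjusted p of 0.363 by edgeR's quasi-likelihood test. The coefficient of variation was 20.5% in Tim-4+ and 69.6% in Tim-4- libraries.

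Csf1r, the CSF1 receptor (chr18:61100598-61132149, plus strand), stood at 2559, 2774, 2969 and 2799 CPM in Tim-4+ TAMs and at 2731, 2149, 2595 and 1958 CPM in Tim-4- TAMs. The groups overlapped, and 3 of 4 pairs were higher in Tim-4+ TAMs. A log2 fold change of 0.25 ± 0.17 (SE) did not pass the test (edgeR adjusted p = 0.353), and its sign turned to -0.11 when counts were scaled to library totals. Exons of Csf1r overlap Hmgxb3 on the other strand, which was measured at 34.0 ± 7.59 CPM (SD, n = 4) in Tim-4+ and 32.3 ± 4.19 in Tim-4- TAMs, far under Csf1r in both.

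Csf2ra, the alpha chain that gives the GM-CSF receptor its specificity (chr19:61223957-61228429, minus strand), stood at 496, 578, 379.8 and 517 CPM in Tim-4+ TAMs and at 526, 338, 295 and 357 CPM in Tim-4- TAMs. The Tim-4- library of pair 793 lay inside the Tim-4+ range, and that pair alone was not higher in Tim-4+ TAMs. On the log2 scale the fold change was 0.40 ± 0.16 (SE), which did not pass the test (edgeR adjusted p = 0.127).

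Mice carry 2 beta chain genes side by side on chromosome 15, Csf2rb (chr15:78325752-78353847, plus strand), shared by the receptors of GM-CSF, IL-3 and IL-5, and Csf2rb2 (chr15:78282507-78305721, minus strand), whose product serves the IL-3 receptor. Their coding sequences are 95.2% identical over 2628 aligned bases, and 892 stretches of 50 bases (the read length) are found in both genes, which is 12.3% of those of Csf2rb and 18.4% of those of Csf2rb2. Reads that fit several places were set aside, so both genes were counted on the stretches where they differ. The pair of coding sequences is given here where they differ most within 120 bases, with capitals at the 22 bases that differ. This stretch lies at coding bases 309 to 428 of transcript Csf2rb-201 and 312 to 431 of Csf2rb2-201 (GENCODE M21, GRCm38), counted from the start codon. A stretch without differences follows, at coding bases 2083 to 2202 of both.
Csf2rb: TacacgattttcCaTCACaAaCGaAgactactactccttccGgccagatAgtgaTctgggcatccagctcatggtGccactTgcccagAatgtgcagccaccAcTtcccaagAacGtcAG
Csf2rb2: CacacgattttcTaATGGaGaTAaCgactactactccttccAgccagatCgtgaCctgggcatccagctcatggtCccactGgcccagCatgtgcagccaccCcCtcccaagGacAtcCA
Both genes: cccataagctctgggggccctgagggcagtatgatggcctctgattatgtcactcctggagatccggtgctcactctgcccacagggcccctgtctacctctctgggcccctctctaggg

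Csf2rb was measured at 327, 435, 257 and 261 CPM in Tim-4+ TAMs and at 186, 239, 173 and 84.5 CPM in Tim-4- TAMs. Each Tim-4+ library was higher than all Tim-4- libraries. Groups that do not overlap were found for 2 of the 8 genes, Csf2rb and Csf3r, and for 12.8% of all genes tested. The log2 fold change was 0.97 ± 0.18 (SE), or 1.96-fold, higher in 4 of 4 pairs, with an adjusted p of 0.0141 by edgeR. By edgeR, the adjusted p was 0.0812 without pair 784 and 0.130 without the block.

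Csf2rb2 was lower than Csf2rb in each library, at 83.9, 169, 108 and 76.0 CPM in Tim-4+ TAMs and 57.2, 97.6, 83.0 and 30.4 CPM in Tim-4- TAMs. It was higher in Tim-4+ TAMs in 4 of 4 pairs while the groups overlapped, and pair 784 was highest in both subsets. The log2 fold change was 0.76 ± 0.16 (SE), or 1.69-fold, with an edgeR adjusted p of 0.0202. This call was lost without pair 793 (adjusted p = 0.0539), pair 784 (0.104) or pair 779 (0.0503) and without the block (0.324), each by edgeR. Csf2rb made up 70.4% to 79.6% of the CPM of both genes in the Tim-4+ libraries and 67.5% to 76.5% in the Tim-4- libraries. These shares are not per kb, and Csf2rb has the longer exons, 7.277 kb against 4.74 kb. With the counts of both genes added into 1 row, the log2 fold change was 0.91 ± 0.18 (SE, edgeR adjusted p = 0.0164).

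The ratio of both beta chain genes together to Csf2ra, each per kb, needs no scaling between libraries. Since it includes Csf2rb2, whose product serves the IL-3 receptor, it is not the ratio of the chains of the GM-CSF receptor. Csf2rb and Csf2rb2 together over Csf2ra came to 0.363, 0.474, 0.439 and 0.288 in Tim-4+ TAMs and to 0.206, 0.454, 0.401 and 0.145 in Tim-4- TAMs. The ratio was higher in Tim-4+ TAMs in 4 of 4 pairs, widely in pairs 793 and 779 and narrowly in pairs 784 and 783, and the groups overlapped. The mean log2 difference was 0.50, with p = 0.125 by an exact two-sided sign-flip permutation test over 4 pairs, the smallest value this design allows.

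Csf3r, the G-CSF receptor gene (chr4:126024550-126044440, plus strand), stood at 320.5, 366, 249 and 331 CPM in Tim-4+ TAMs and at 189, 157, 148 and 85.2 CPM in Tim-4- TAMs. The lowest Tim-4+ library was higher than the highest Tim-4- library. The log2 fold change was 1.17 ± 0.21 (SE), or 2.25-fold, higher in 4 of 4 pairs, with an edgeR adjusted p of 0.0147. Csf3r had the largest rise of the 8 genes. The edgeR adjusted p rose to 0.0911 without pair 784 and to 0.0535 without the block.

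Neutrophils are the cells best known for Csf3r, and their markers were low in both subsets. The 11 neutrophil markers summed to 2.04 to 4.79 CPM in Tim-4+ libraries and 2.01 to 7.19 CPM in Tim-4- libraries. The defining marker Ly6g had 0 to 5 counts per library, 3 of the 11 could be tested, S100a8 was the most abundant, and Mmp8 was called higher in Tim-4+ TAMs at a mean of 0.579 against 0.120 CPM. The part of neutrophils in the levels of Csf3r was not tested. Within each library, Csf3r over Csf1r per kb came to 0.200, 0.211, 0.134 and 0.189 in Tim-4+ TAMs and to 0.111, 0.117, 0.0913 and 0.0696 in Tim-4- TAMs. These groups did not overlap, and the mean log2 difference was 0.93 (p = 0.125, exact two-sided sign-flip permutation test over 4 pairs, the smallest p possible).

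**Figure D3:**
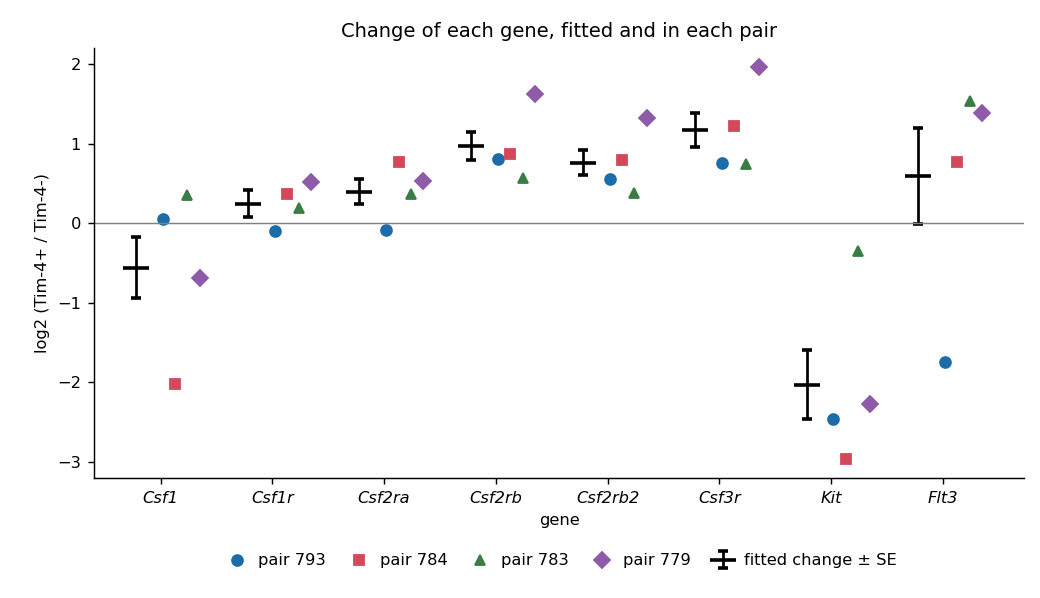
The change of each gene from Tim-4- to Tim-4+ TAMs on the log2 scale, as fitted by edgeR with its SE (black) and as the ratio within each of 4 pairs (colored points). Csf2rb, Csf2rb2 and Csf3r are above 0 in all pairs and Kit is under 0 in all pairs, while Csf1, Csf1r, Csf2ra and Flt3 have pairs on both sides.

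Kit, the stem cell factor receptor gene (chr5:75574916-75656722, plus strand), was the 1 gene of the 8 that fell. It was measured at 2.40, 7.14, 15.4 and 6.74 CPM in Tim-4+ TAMs, from 114, 357, 843 and 324 counts. In Tim-4- TAMs it stood at 13.2, 55.6, 19.7 and 32.6 CPM, from 881, 4070, 1544 and 2125 counts. The Tim-4+ library was the lower of its pair in all 4 pairs, by 5.51, 7.79, 1.28 and 4.84 times, and the groups overlapped because the Tim-4+ library of pair 783 was higher than the Tim-4- library of pair 793. The fitted log2 fold change was -2.03 ± 0.43 (SE), or 4.09-fold lower, with an edgeR adjusted p of 0.0269. The call was lost without pair 793 (adjusted p = 0.106), pair 784 (0.109) or pair 779 (0.1099), without the block (0.0981) and with no filter on low counts (0.197), each by edgeR. Without pair 783 the log2 fold change was -2.57, with an edgeR adjusted p of 1.64e-05.

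Markers of other cell types differed between the same libraries. The 12 tumor, mesothelial and stromal markers, with the keratin gene Krt19 the most abundant, summed to 116, 210.1, 429 and 228 CPM in Tim-4+ TAMs and to 441, 1326, 897 and 1976 CPM in Tim-4- TAMs. Of these 12, 8 were called lower in Tim-4+ TAMs by edgeR (Krt7, Krt8, Krt18, Krt19, Wt1, Msln, Upk3b and Lrrn4), 9 were lower at an unadjusted p under 0.05, and 0 were higher by either measure. The 4 not called were the stromal markers Col1a1, Col1a2, Col3a1 and Pdgfra, with log2 fold changes of 0.56, -0.49, -0.061 and -1.34. Tim-4- libraries exceeded Tim-4+ libraries in this sum by 3.79, 6.31, 2.09 and 8.68 times. The difference was smallest in pair 783 for both this sum and Kit, and largest in pair 779 for the sum but in pair 784 for Kit.

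Kit is also a mast cell gene. The 11 mast cell markers summed to 106, 120.6, 44.9 and 115 CPM in Tim-4+ libraries and to 52.7, 119.8, 20.4 and 94.9 CPM in Tim-4- libraries. The full sum was thus higher in the Tim-4+ library of every pair, narrowly in pair 784. It came mostly from Hdc, the histidine decarboxylase gene, which was higher in Tim-4+ TAMs. Of the 6 that could be tested, Mcpt4 and Gata2 were lower in Tim-4+ TAMs and Hdc was higher. The other 10 markers together stood at 1.81, 0.800, 0.841 and 2.18 CPM in Tim-4+ TAMs and at 15.1, 14.1, 0.867 and 29.7 CPM in Tim-4- TAMs, a sum without Hdc that was chosen after the values were seen. This sum was higher in the Tim-4- library in pairs 793, 784 and 779 and about equal in pair 783. The defining markers Ms4a2, Mrgprb1 and Mrgprb2 were at 0 counts in all Tim-4+ libraries, and in Tim-4- libraries they had at most 2, 28 and 7 counts. The 5 progenitor markers, led by Gata1, summed to 1.85 to 8.59 CPM in Tim-4+ and 4.03 to 9.55 CPM in Tim-4- TAMs, and 1 of 4 tested, Mecom, was lower in Tim-4+ TAMs. The part of these cell types in the levels of Kit was not tested.

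**Figure D4:**
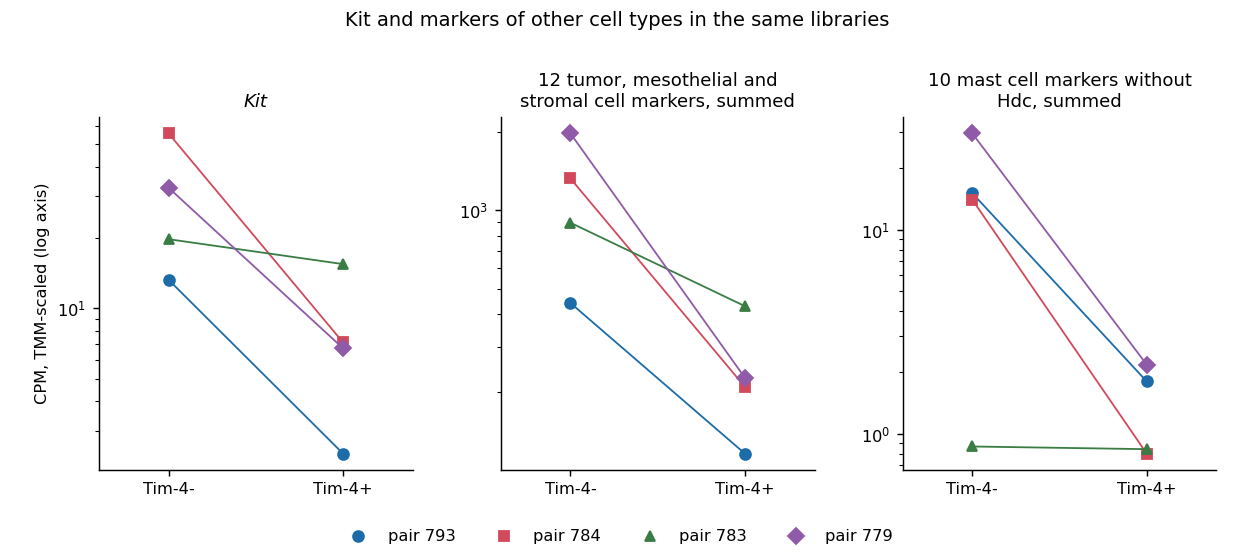
Levels in CPM on log axes, in the Tim-4- and the Tim-4+ library of each pair (joined by lines), of Kit, of 12 tumor, mesothelial and stromal cell markers added together, and of 10 mast cell markers without Hdc added together. In pair 783 (green triangles) Kit, the 12 markers and the 10 markers have their smallest differences between the subsets, with 0.867 against 0.841 CPM for the mast cell markers. The largest difference is in pair 784 for Kit and in pair 779 for the 12 markers. Hdc was left out after the values were seen, and with it the sum of all 11 mast cell markers is higher in the Tim-4+ library of every pair.

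Flt3, the receptor gene of FLT3 ligand (chr5:147330741-147400489, minus strand), was the lowest of the 8, with 12, 43, 79 and 85 counts in Tim-4+ TAMs and 58, 37, 39 and 44 counts in Tim-4- TAMs. This made 0.252, 0.860, 1.44 and 1.77 CPM against 0.869, 0.506, 0.497 and 0.676 CPM. Pair 793 was lower and the other pairs were higher in Tim-4+ TAMs. With a log2 fold change of 0.59 ± 0.60 (SE), no difference was detectable at this depth (edgeR adjusted p = 0.537). Of 10 dendritic cell markers, with Zbtb46 the most abundant, 9 were tested, Cd209a was higher in Tim-4+ TAMs, and Zbtb46 and Batf3 were lower. Their sum was 14.4 to 32.6 CPM in Tim-4+ and 15.7 to 20.9 CPM in Tim-4- libraries.

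The remaining marker lists were low or differed in the direction of the sort. The 6 monocyte markers, led by the chemokine receptor gene Ccr2, summed to 61.3 to 129 CPM in Tim-4+ and 186 to 237 CPM in Tim-4- TAMs, and 3 of 6 were lower in Tim-4+ TAMs (Ly6c2, Ccr2 and Chil3). B cell markers, led by Cd79a, made 5.36 to 15.4 and 10.5 to 18.4 CPM, with 1 of 5 tested (Cd79b) lower in Tim-4+ TAMs. Markers of T cells, NK cells and innate lymphoid cells, led by Il1rl1, made 1.74 to 4.20 and 3.38 to 6.36 CPM, and eosinophil markers, led by Siglecf, made 0.600 to 1.11 and 0.424 to 0.869 CPM. Of the 3 lymphoid and 2 eosinophil markers that edgeR tested, 0 were called and 0 had an unadjusted p under 0.05.

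The other ligands and receptors of the system were a list of 13 genes, of which 9 could be tested, 2 were higher in Tim-4+ TAMs and 1 was lower. That made 33.3% called, against 17.4% of all genes tested. This list too was chosen with earlier results of these data known, so the share is no test. Il34, the second ligand of CSF1R, stood at 0.922, 1.68, 1.90 and 0.208 CPM in Tim-4+ TAMs and at 1.74, 13.4, 2.27 and 7.78 CPM in Tim-4- TAMs. It was lower in the Tim-4+ library of all 4 pairs, by 1.19 to 37.4 times, and its log2 fold change of -2.18 ± 0.83 (SE) did not pass the test (edgeR adjusted p = 0.121). Kitl, the KIT ligand gene, had a log2 fold change of -0.78 ± 0.36 (SE, edgeR adjusted p = 0.182), with means of 15.3 ± 8.95 CPM against 24.3 ± 6.61 CPM (SD, n = 4). Flt3l, the FLT3 ligand gene, stood at 6.72 ± 2.39 and 6.74 ± 2.31 CPM, with a log2 difference of -0.0076 ± 0.17 (SE). The part of the cells behind the tumor, mesothelial and stromal markers in Il34, Kitl and Csf1 was not tested. In pairs 793, 784, 783 and 779, those markers were 3.79, 6.31, 2.09 and 8.68 times as high in Tim-4- as in Tim-4+ TAMs. The same ratio was 1.88, 7.99, 1.19 and 37.4 for Il34 and 0.963, 4.04, 0.779 and 1.61 for Csf1. For Kitl it was 1.63, 3.24, 0.685 and 2.35. The ratio was over 1 in all pairs for Il34, under 1 in pair 783 for Csf1 and Kitl, and under 1 in pair 793 for Csf1.

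Csf2 and Csf3, which encode GM-CSF and G-CSF, were called higher in Tim-4+ TAMs at low levels. Csf2 had 80, 49, 5 and 14 counts in Tim-4+ libraries and 12, 0, 0 and 0 counts in Tim-4- libraries (edgeR adjusted p = 0.0168). It passed the filter on low counts through the Tim-4+ libraries of pairs 793, 784 and 779 and the Tim-4- library of pair 793. That Csf2 was tested thus rested on the 12 counts of that Tim-4- library. With 1 lane of that library left out, 8 instead of 9 of the other ligands and receptors were tested, and 1 instead of 2 was called higher. With either lane alone, 7 were tested and 1 was called higher. Csf3 had 103, 99, 13 and 155 counts against 64, 30, 0 and 16 counts (edgeR adjusted p = 0.0311). The Tim-4+ library held more counts in each pair for both genes, and their highest levels were 1.68 CPM for Csf2 and 3.23 CPM for Csf3. Fitted fold changes against groups with counts of 0 depend on the prior count and are not given. Il3 and Il5, the ligands that share the beta chain, had 0 counts in all 8 libraries.

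Il3ra, the alpha chain of the IL-3 receptor, stood at 43.4, 50.02, 25.9 and 53.7 CPM in Tim-4+ TAMs and at 31.9, 13.4, 24.4 and 20.3 CPM in Tim-4- TAMs. It was higher in 4 of 4 pairs, with a log2 fold change of 0.96 ± 0.31 (SE), and did not pass the test (edgeR adjusted p = 0.0816). Il5ra, the alpha chain of the IL-5 receptor, had 1 to 22 counts and was not tested. Sdc1, encoding syndecan-1, a proteoglycan that binds IL-34, was lower in Tim-4+ TAMs at 6.89 ± 2.85 CPM against 17.4 ± 6.35 CPM (SD, n = 4), with a log2 fold change of -1.35 ± 0.21 (SE, edgeR adjusted p = 0.00949). Ptprz1, another IL-34 receptor gene, had at most 1 count per library. Of the platelet-derived growth factor receptors, which belong to the kinase family of CSF1R, KIT and FLT3, Pdgfra had a log2 fold change of -1.34 ± 0.52 (SE, edgeR adjusted p = 0.126) and Pdgfrb, at 0.256 ± 0.174 against 0.152 ± 0.0760 CPM (SD, n = 4), of 0.70 ± 0.59 (SE, edgeR adjusted p = 0.450).

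Signaling genes that act after CSF1R, KIT and FLT3 were a list of 27, of which 5 rose in Tim-4+ TAMs, 0 fell and 22 did not pass the test by edgeR (12 higher and 1 lower at an unadjusted p under 0.05). The share called, 18.5%, was near the 17.4% of all genes tested. The median log2 fold change was 0.24. The 5 were Gab2, an adaptor for PI3-kinase and SHP2 (0.78 ± 0.14 SE), Tyrobp, the adaptor DAP12 (0.84 ± 0.19), Cblb, a ubiquitin ligase (0.80 ± 0.20), the Src family kinase gene Fgr (0.64 ± 0.14) and Ptpn6, the phosphatase SHP-1 (0.63 ± 0.15). Their edgeR adjusted p ranged from 0.0137 for Gab2 to 0.0354 for Cblb. Tyrobp was the most abundant of them at 1026 ± 171 CPM, against 578 ± 116 CPM in the Tim-4- libraries (SD, n = 4). Scaled to library totals, Gab2 and Tyrobp remained higher, 2 genes of the list were lower, and the median of the list turned to -0.12.

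Among 18 genes of JAK-STAT signaling and its feedback, 1 rose and 16 did not pass the test, with a median log2 fold change of 0.05, or -0.31 with library totals as the scale. Called genes were 11.1% of this list, against 17.4% of all genes tested. Pim1, a kinase gene induced by STAT5, was higher in Tim-4+ TAMs by 0.62 ± 0.15 (log2 fold change ± SE, edgeR adjusted p = 0.0299), a call lost with library totals (0.108).

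Of 21 transcription factors listed as regulators of Csf1r, 20 were tested, 6 rose, 2 fell and 12 did not pass the test, while Csf1r itself was not called. That made 40% called, against 17.4% of all genes tested. The list was chosen with earlier results of these data known, so this share is a description and not a test. The 6 that rose were Bhlhe40, Cebpb, Ets2, Fli1, Klf4 and Tfec, with log2 fold changes from 0.75 ± 0.14 (SE) for Fli1 to 1.02 ± 0.20 for Tfec. Ets2 stood at 583 ± 162 against 328 ± 147 CPM, and Bhlhe40 at 1235 ± 477 against 637 ± 320.1 CPM (SD, n = 4). The 2 that fell were Ets1, known from lymphocytes (-1.81 ± 0.36 SE), and Maf, which limits macrophage self-renewal (-0.70 ± 0.19 SE, edgeR adjusted p = 0.0460). The median of the list was 0.36, and 0.0051 with library totals, where Klf4 was no longer called (0.0590).

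The 5 shedding genes, for proteases that release the outer parts of CSF1 and CSF1R from the membrane and for their partners, held 1 that fell and 0 that rose by edgeR (2 lower and 1 higher at an unadjusted p under 0.05), with a median log2 fold change of -0.09. The share called was 20%, near the 17.4% of all genes tested. Rhbdf1, a partner of the protease ADAM17, stood at 14.6 ± 4.34 against 26.9 ± 7.71 CPM (SD, n = 4), with a log2 fold change of -0.89 ± 0.23 (SE, edgeR adjusted p = 0.0371). With pair 784 left out 0 genes of these 5 lists of signaling, ligand, regulator and shedding genes were called by edgeR, with 17 higher and 6 lower at an unadjusted p under 0.05. DESeq2 with the block on all pairs called 23 higher and 7 lower, against 14 and 5 by edgeR.

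**Figure D5:**
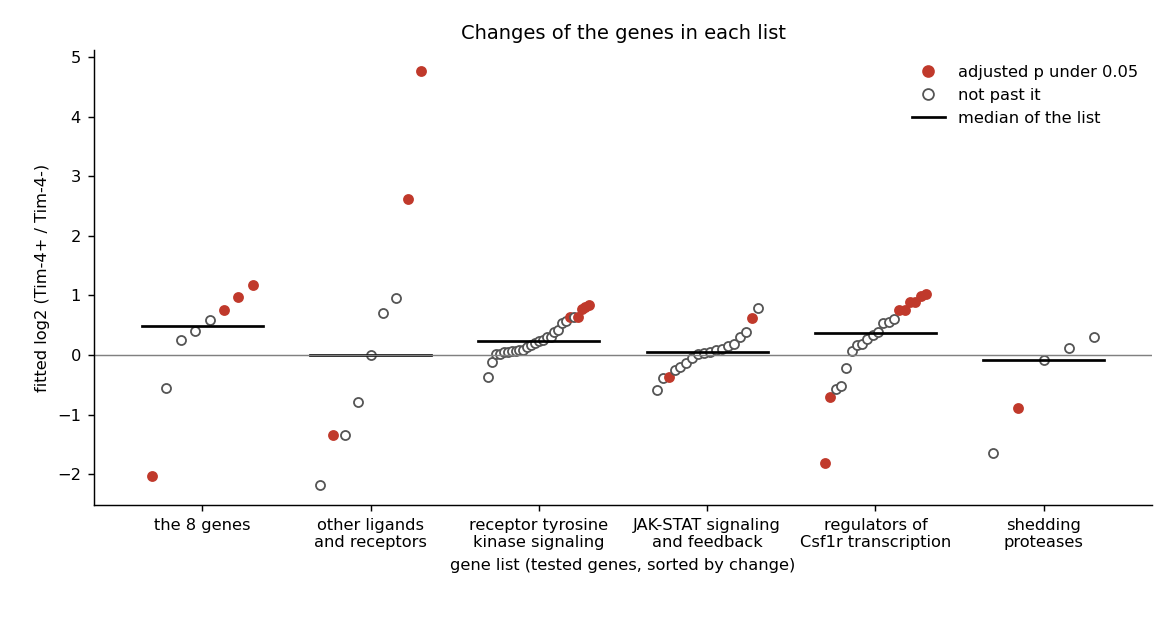
Fitted log2 fold changes, Tim-4+ over Tim-4-, of the tested genes of 6 lists, sorted within a list, with filled red points for an adjusted p under 0.05 and bars at list medians. As plotted, the 8 genes have the median furthest from 0 at 0.49, and the highest points of the second list are Csf2 and Csf3, both of low count. With library totals as the scale, the median of the 8 genes was 0.13. The shedding genes, at -0.45, then had the median furthest from 0.

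For the 4 called genes, the pattern over the pairs was set beside that of 8763 other genes that averaged 10 CPM or more, by the root mean square difference of the 4 log2 ratios. The nearest to Csf2rb were Elovl5 (0.066), Igsf6 (0.10) and Cd38 (0.10), and the nearest to Csf2rb2 were Fmnl2 (0.069), Cers6 (0.078) and Dram1 (0.082). Csf3r was followed most closely by Hp (0.11), Ptgir (0.12) and Ifi203-ps (0.13). The nearest to Kit were Cxadr (0.23), Zfp462 (0.25) and Mgat3 (0.28), further off than for the other called genes.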

How the data were processed

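The deposited values are unnormalized read counts, 1 per gene in each lane. Per the study's methods, ribosomal RNA was removed, libraries were stranded and read in pairs of 50 cycles. The submitters' processing notes name FastQC 0.11.3, TopHat2 2.0.13, Cufflinks and Cuffdiff 2.2.1 and the build GRCm38, whereas the paper's text names a human reference. The identifiers are of mouse. The counting tool and its use of strand are not given in the sources used here, so overlapping genes on opposite strands are uncertain. Reads that fit several places were set aside, which lowers near-identical genes.

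Each lane lists 55604 genes, and 98.6% of the identifiers were found in GENCODE M21. In 1 lane, of the Tim-4- library of pair 793, genes are listed by symbol. It was joined by row order, with its Timd4 row put back in its place, 96.9% of the symbols matched, and the rows of all 8 genes matched. The 2 lanes of a library, which differed by more than counting error (chi-square per degree of freedom 2.29 to 2.42), were summed into 1 replicate. In the Tim-4- library of pair 779, reads that fit several places made up 24.5% in lane 1 and 9.11% in lane 2, against 20.3% to 23.8% in the other lanes that report them, and the cause was not traced. A gene needed 10 counts or more in 4 of the 8 libraries to be tested, with edgeR 4.0.16 in R 4.3.3 (quasi-likelihood test, robust, TMM factors, pair as a block, Benjamini-Hochberg over 16861 genes). The SE is the log2 fold change over the square root of F. Nothing says that libraries came from separate mice, so p-values measure the spread between these libraries, which may be technical. Pairs come from the numbers in the labels, and the deviations from the group means of libraries with the same number correlated across genes with r of 0.248 to 0.454. The ratios within pairs used a prior count of 0.5. Floors of 3 counts cover counting error only. The calculation was tested on simulated data.

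The text names all 8 genes, the called genes of each pathway list (1 is not reported here), every other ligand and receptor listed, the most abundant marker of each cell type list with those called or quoted, and the 3 genes nearest to each called gene. The 8 genes and the lists were chosen with earlier results of these data known. Alternatives were DESeq2 1.42.0 with the block or its size factors, library totals, no block, other count filters, each lane alone, other handling of the lane listed by symbol, the beta chain genes summed, and each pair left out.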

Additional observations from a re-analysis of the deposited data

How the results depend on the processing

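Over the alternatives, 112 of 113 log2 fold changes of the 8 genes kept their direction, and 1 turned, that of Csf1r with library totals (-0.11). With no replicate block 0 of the 8 genes were called higher and 0 lower, 0 and 0 genes of the 5 pathway lists (10 higher and 6 lower at an unadjusted p under 0.05), and 147 and 85 of all genes, against 3 and 1, 14 and 5, and 1512 and 1421 in the paired edgeR fit. Library totals gave 789 higher and 4906 lower over all genes and 9 and 13 in the lists, and DESeq2 with the block gave 2328 lower genes and 23 higher in the lists. With no filter on low counts 0 of the 8 were lower. A filter at 50 counts gave no value for Flt3. Leaving out 1 pair at a time gave 0 to 3 of the 8 genes higher and 0 to 1 lower, 0 to 19 higher and 0 to 9 lower in the lists, and 91 to 1608 higher and 67 to 1975 lower over all genes, with the lowest counts reached without pair 784. The cause of these moves was not tested. The other alternatives, each lane alone, DESeq2 size factors and both ways of handling the lane listed by symbol, changed no call of the 8 genes. Depth limits Flt3, Csf2 and Csf3, which had at most 155 counts in a library.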
